A study of Mus musculus with 21 samples.

Results

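The data were read for 10 genes of antigen presentation by MHC class II across sorted mouse macrophages and monocytes. They are the class II chains H2-Ab1, H2-Aa, H2-Eb1 and H2-Eb2, the invariant chain Cd74, the peptide editors H2-DMa, H2-DMb1, H2-DMb2 and H2-Oa, and Ciita, the regulator of class II transcription. The 10 genes were matched by symbol to the gene IDs of the count table, which holds 27179 IDs. Each of the 10 had enough counts to be tested, among 13275 genes tested in all. RNA had been sequenced from 21 libraries in 7 groups of 3, all from mice of the C57BL/6 strain. Of the 7 groups, 6 were cardiac macrophages from naive mice or from mice challenged with CAWS, a water-soluble extract of the yeast Candida albicans that serves as a model of Kawasaki disease. Within each treatment, R1 and R2 were both Ccr2-negative, MHC-II-low in R1 and MHC-II-high in R2, whereas R3 was MHC-II-high and Ccr2-positive. The other group, from naive spleens, was of Ccr2-positive monocytes with no MHC-II gate named. Each group came from 3 independent pools of mice, and each heart pool was divided into R1, R2 and R3. The labels do not state the number of mice per pool, their age or sex, or the dose, route and time of CAWS.

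Class II molecules are pairs of an alpha and a beta chain that carry peptides to the surface for CD4 T cells. The invariant chain Cd74 holds the new pair in a shape that takes no peptide and leads it to the endosome, where proteases trim it to a fragment in the groove. H2-M, made of H2-DMa with H2-DMb1 or H2-DMb2, swaps that fragment for antigen peptides, and H2-O, made of H2-Oa with H2-Ob, restrains H2-M and is best known from B cells and dendritic cells. Ciita binds no DNA itself. It docks on a complex of RFX, CREB and NF-Y proteins that sits on the X and Y boxes of the promoters of these genes, and interferon-gamma is the classical signal that turns Ciita on in macrophages. C57BL/6 mice carry a deletion at the promoter of H2-Ea, so the I-E beta chain from H2-Eb1 has no alpha partner at their surface. H2-Ea RNA was at 0 counts in 4 of the 7 groups and reached 8 counts in naive R2 over 3 libraries.

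Of the 10 genes, 8 lie together in the major histocompatibility complex on chromosome 17. RefSeq promoter windows (GRCm38.p6, 250 bases before to 50 after a transcript start) were at hand for 7 of the 10. The windows were searched on both strands for TGATTGG, a form of the Y box that NF-Y reads, and for GCAAC, a core of the X box, with these letters chosen after the sequences were seen. TGATTGG was present in 6 of the 7 genes, all but H2-DMa, and in 7.82% of the 32851 windows of all genes. GCAAC followed by TGATTGG on the same strand, with 15 to 45 bases between them, was present in 4 of the 7, H2-Aa, H2-Eb1, H2-Eb2 and H2-Oa, and in 0.298% of all windows. The stretches below show this arrangement in the alpha chain H2-Aa (chr17:34287863-34287916, minus strand) and the beta chains H2-Eb1 (chr17:34305764-34305816, plus strand) and H2-Eb2 (chr17:34325531-34325583, plus strand). H2-Ob (chr17:34238806-34238856, plus strand), the partner of H2-Oa, and the editor H2-DMb2 (chr17:34145113-34145167, plus strand), which has TGATTGG alone, are shown for comparison. Each reads 5′ to 3′ on the gene's own strand, with the motif letters in capitals.
H2-Aa: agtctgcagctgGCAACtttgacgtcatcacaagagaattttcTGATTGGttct
H2-Eb1: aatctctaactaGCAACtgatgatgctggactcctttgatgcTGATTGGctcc
H2-Eb2: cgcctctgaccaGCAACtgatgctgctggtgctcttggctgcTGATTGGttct
H2-Ob: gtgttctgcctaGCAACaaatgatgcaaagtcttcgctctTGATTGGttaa
H2-DMb2: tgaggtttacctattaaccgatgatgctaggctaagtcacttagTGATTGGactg
The spacing between the motifs was 26 bases in H2-Aa, 25 in H2-Eb1, 25 in H2-Eb2, 26 in H2-Oa and 23 in H2-Ob. H2-DMb1 also held TGATTGG without GCAAC before it. The stretches of H2-Eb2 and H2-DMb2 lie inside the spans given further on for those genes, before a transcript start within the gene. A match describes letters in a window and is not a measured binding site. H2-Eb1 and H2-Eb2 share the spacing, although their RNA differed greatly in level, as the values that follow show.

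The libraries held 12800136 to 23006155 counts each (median 16763449). Levels are given as CPM, counts scaled by the TMM-adjusted library size, and a second scale, TPM, divides by gene length first and serves to compare genes. In the libraries labelled macrophage, the summed level of 6 macrophage markers was 10802 to 17919 CPM, against 4213 to 4893 CPM in the splenic monocytes. The monocyte markers Ly6c2, Plac8 and Cd177 were highest in the splenic monocytes, where Ly6c2 measured 741 to 1027 CPM against 7.28 CPM at most in any heart library. Ccr2 RNA was 5.39 to 38.7 CPM in the libraries of naive R1 and R2, 40.6 to 267 CPM in those of CAWS R1 and R2 and 2041 to 4063 CPM in those of R3. Endothelial and stromal markers summed to 157 CPM in naive R3 replicate 2, against 21.5 CPM at most in the other two naive R3 libraries. NK cell markers summed to 18.3 CPM in CAWS R1 replicate 2, against 4.98 and 5.26 CPM in the others of that group. Replicates of a group are separate pools, so p-values measure the spread between pools. Libraries of the 3 heart populations with the same number in a treatment were read as sharing a pool, which the labels do not state.

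The 10 genes together took 0.482% ± 0.124 of all counts in naive R1 (SD, n = 3), 7.04% ± 0.50 in naive R2 and 8.55% ± 0.79 in naive R3. After CAWS they took 0.941% ± 0.241 in R1, 6.06% ± 0.88 in R2 and 7.15% ± 1.12 in R3, and in the splenic monocytes 0.391% ± 0.156. Per length, Cd74 led in every group. In naive R2, for example, it reached 50646 ± 2778 TPM, followed by H2-Aa at 28877 ± 1792, H2-Ab1 at 18793 ± 1472 and H2-Eb1 at 14484 ± 1165 TPM. The editors H2-DMa and H2-DMb1 stood lower, at 2359.6 ± 191 and 633 ± 48.4 TPM, and Ciita at 84.1 ± 13.2 TPM. H2-DMb2 (19.5 ± 2.86 TPM), H2-Oa (9.24 ± 3.37) and H2-Eb2 (3.53 ± 0.30) were the least abundant of the 10 there. In naive R2, naive R3 and CAWS R3, Cd74 was the most counted gene in every library, and in CAWS R2 it ranked 1 or 2.

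**Figure D1:**
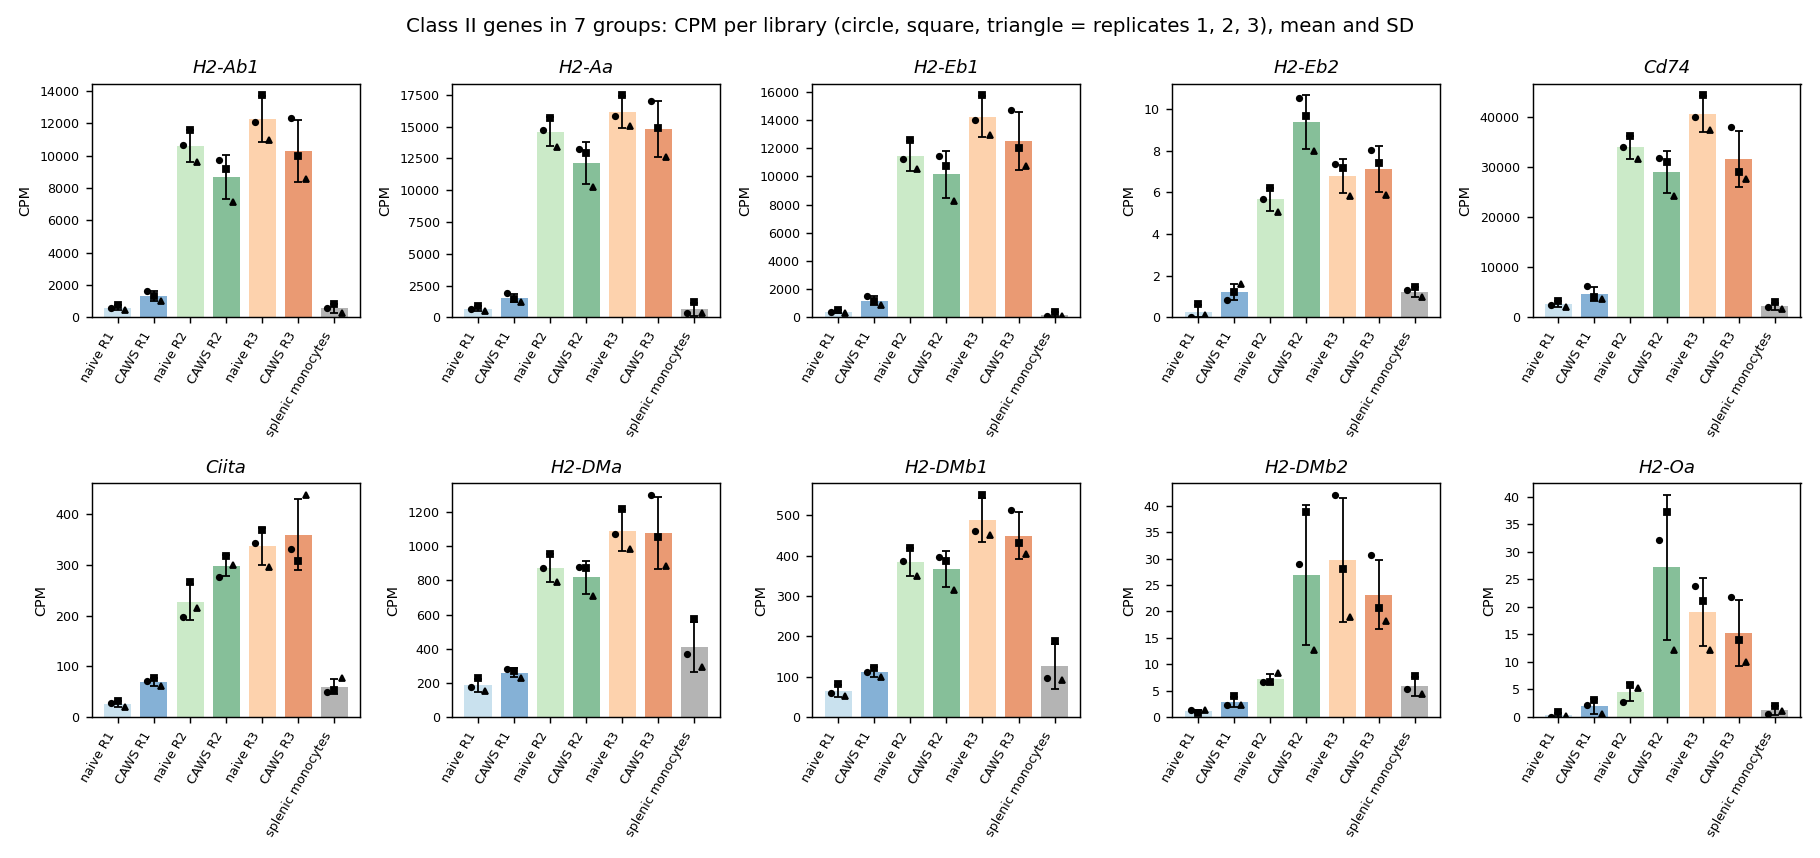
Level of each of the 10 class II genes in CPM (linear axes from 0, a separate scale for each gene) in 7 groups of sorted cells. Bars give the mean of 3 libraries, lines the SD and symbols the 3 replicates. H2-Ab1, H2-Aa, H2-Eb1 and Cd74 stand far above R1 and the monocytes in all 4 MHC-II-high groups, while H2-DMb2 and H2-Oa are low in naive R2 and higher in CAWS R2.

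H2-Ab1, the I-A beta chain, is part of the molecule that the MHC-II gate measured on the surface, so its RNA between R1 and the other populations follows the sort. It measured 583, 782 and 449 CPM in replicates 1, 2 and 3 of naive R1, 10631, 11579 and 9627 CPM in naive R2 and 12065, 13768 and 10988 CPM in naive R3. In the order of mean levels, naive R3, naive R2, CAWS R3 and CAWS R2 overlapped with their neighbours, CAWS R1 (1617, 1293 and 991 CPM) stood apart on both sides, and naive R1 overlapped with the splenic monocytes (593, 837 and 284 CPM). H2-Aa, the I-A alpha chain, kept the same break between the MHC-II-high groups and the rest. Its lowest MHC-II-high library had 10222 CPM, in CAWS R2, and its highest other library 1892 CPM, in CAWS R1. For 8 of the 10 genes no library of an MHC-II-high group fell to the level of R1 or the monocytes. The exceptions were H2-DMb2, where naive R2 (6.71 to 8.28 CPM) overlapped with the monocytes (4.37 to 7.78 CPM), and H2-Oa, where naive R2 (2.71 to 5.80 CPM) overlapped with CAWS R1 (0.559 to 3.13 CPM).

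In R1, the MHC-II-low macrophages, class II genes were higher after CAWS. Cells of both treatments were sorted by MHC-II level, so changes within R1, R2 or R3 are bounded by the gate. A cell whose surface MHC-II crossed the gate would be sorted into another group. Of the 10, 6 rose by edgeR's quasi-likelihood test with Benjamini-Hochberg adjustment (adjusted p under 0.05) and 0 fell, where 6.07% of all genes tested rose and 2.87% fell. The median log2 fold change of the 10 was 1.22, against 0.0257 over all genes tested. Ciita, the regulator, measured 27.6, 31.4 and 19.6 CPM in the naive libraries and 71.6, 76.6 and 61.1 CPM in the CAWS libraries. The groups did not overlap, and the rise was 2.66-fold (log2 fold change 1.41 ± 0.19 (SE), adjusted p = 6.07e-05). H2-Eb1, the I-E beta chain, rose from 386, 551 and 286 CPM to 1494, 1138 and 853 CPM (1.51 ± 0.38, adjusted p = 0.0211). H2-Ab1 rose 2.15-fold (1.10 ± 0.29, adjusted p = 0.026), and every CAWS library was above every naive one.

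The invariant chain Cd74 went from 2488, 3269 and 2035 CPM to 6200, 4101 and 3617 CPM in R1 (0.84 ± 0.22, adjusted p = 0.0246). The editor chain H2-DMb1 rose by 0.78 ± 0.22 on the log2 scale (adjusted p = 0.0296), from 51.9 to 81.3 CPM up to 99.1 to 122 CPM. H2-Eb2, a little-studied beta-chain gene beside H2-Eb1, was called on few counts: 12 in the 3 naive R1 libraries together and 68 in the 3 CAWS libraries (2.34 ± 0.64, adjusted p = 0.0234). The other 4 genes did not pass. H2-Aa had a log2 fold change of 1.16 ± 0.38 (adjusted p = 0.0682) with no overlap between the groups, H2-DMa 0.47 ± 0.20 (0.155), H2-DMb2 1.29 ± 0.66 (0.255) and H2-Oa 2.40 ± 1.10 (0.196). In all, 8 of the 10 had no overlap between naive and CAWS libraries, all but H2-DMa and H2-Oa, as did 28.5% of all genes tested. The rise left R1 well below the MHC-II-high groups: the highest CAWS R1 library had 1617 CPM of H2-Ab1 and the lowest library of any MHC-II-high group 7147 CPM.

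The Ciita call in R1 held in all 14 alternative settings (adjusted p at most 0.00139), whereas the count of called genes rested on single libraries. It was 1 without naive R1 replicate 1 or without replicate 3, and 2 without CAWS R1 replicate 1 or without replicate 2. DESeq2 called 9 of the 10, where it called 11.3% of all genes in either direction, and limma voom 7, where it called 10.3%. Markers of other cell types differed between the same groups. NK cell markers summed to 0.372 to 2.00 CPM in naive R1 and 4.98 to 18.3 CPM in CAWS R1, with 2 of the 2 tested called higher, and monocyte markers to 22.0 to 41.5 and 67.6 to 276 CPM, with 1 of 6 higher. That monocyte marker was Ccr2, the other sort marker, with a log2 fold change of 3.62 ± 0.35 (edgeR, adjusted p = 6.87e-06). Heart muscle markers summed to 27.4 to 39.6 CPM and 54.2 to 62.2 CPM, with 2 of 5 higher, and 1 of 6 endothelial and stromal markers was higher. Of 10 conventional dendritic cell markers 5 were called higher in CAWS R1, while their sum was 228 to 294 CPM in naive R1, where Kit and Ccr7 were at 0, and 197 to 258 CPM in CAWS R1. The part of such cells in these results was not tested; in RNA from sorted populations, more cells of a type and more RNA per cell cannot be told apart. Without naive R3 replicate 2, CAWS R1 replicate 2 and splenic monocyte replicate 2, left out together after seeing the data, 7 of the 10 were called higher.

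In R2, the Ccr2-negative macrophages sorted as MHC-II-high in both treatments, the abundant chains did not pass the test and 3 sparse genes rose. These were H2-Oa, H2-DMb2 and H2-Eb2, 3 of 10, where 6.79% of all genes tested rose, and 0 of 10 fell where 3.5% did. The median log2 fold change of the 10 was -0.0809, against 0.0225 over all genes. H2-Oa, the alpha chain of H2-O, measured 2.71, 5.80 and 5.20 CPM in the naive libraries and 32.2, 37.1 and 12.2 CPM in the CAWS libraries. All CAWS libraries were above all naive ones, although replicate 3 rose much less than the others (log2 fold change 2.59 ± 0.43, adjusted p = 0.000592). H2-DMb2, a beta chain of the editor H2-M, measured 6.73, 6.71 and 8.28 CPM before and 29.0, 38.9 and 12.8 CPM after CAWS (1.89 ± 0.35, adjusted p = 0.00126). H2-Eb2 rose from 5.07 to 6.20 CPM up to 7.96 to 10.5 CPM (0.73 ± 0.23, adjusted p = 0.0392).

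The main chains of R2 measured slightly less after CAWS without passing the test. H2-Ab1 changed by -0.29 ± 0.29 on the log2 scale (adjusted p = 0.601) and Cd74 by -0.23 ± 0.22 (0.591). H2-Aa was at 14743, 15661 and 13429 CPM in naive R2 and at 13266, 12968 and 10222 CPM in CAWS R2, a difference of -0.27 ± 0.37 (adjusted p = 0.728) with no overlap between the groups. Ciita measured 197 to 266 CPM and 277 to 318 CPM, again with no overlap, and its difference of 0.40 ± 0.17 had an adjusted p of 0.145. The H2-Oa and H2-DMb2 calls held in all 13 alternatives (adjusted p at most 0.0365 and 0.0439), but the H2-Eb2 call was lost without any one of 5 of the 6 libraries compared, with adjusted p up to 0.145.

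In R3, the Ccr2-positive macrophages, 0 of the 10 genes passed edgeR's test in either direction, 0 had an unadjusted p under 0.05, and DESeq2 and limma voom also called 0. Over all genes tested 6.7% rose and 8.29% fell, 29.1% had an unadjusted p under 0.05, and DESeq2 and limma voom called 17.7% and 24.9% in either direction. H2-Ab1 measured 12065, 13768 and 10988 CPM in naive R3 and 12320, 9961 and 8530 CPM in CAWS R3. Ciita measured 345, 369 and 297 CPM and then 331, 309 and 439 CPM. The groups overlapped for all 10 genes, while 34.8% of all genes tested had no overlap, and the widest log2 differences were -0.37 ± 0.32 for H2-DMb2 and -0.36 ± 0.22 for Cd74, against the rises of 1.89 and 0.84 that the same genes showed in R2 and R1. Differences of this size did not pass with 3 pools a group.

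**Figure D2:**
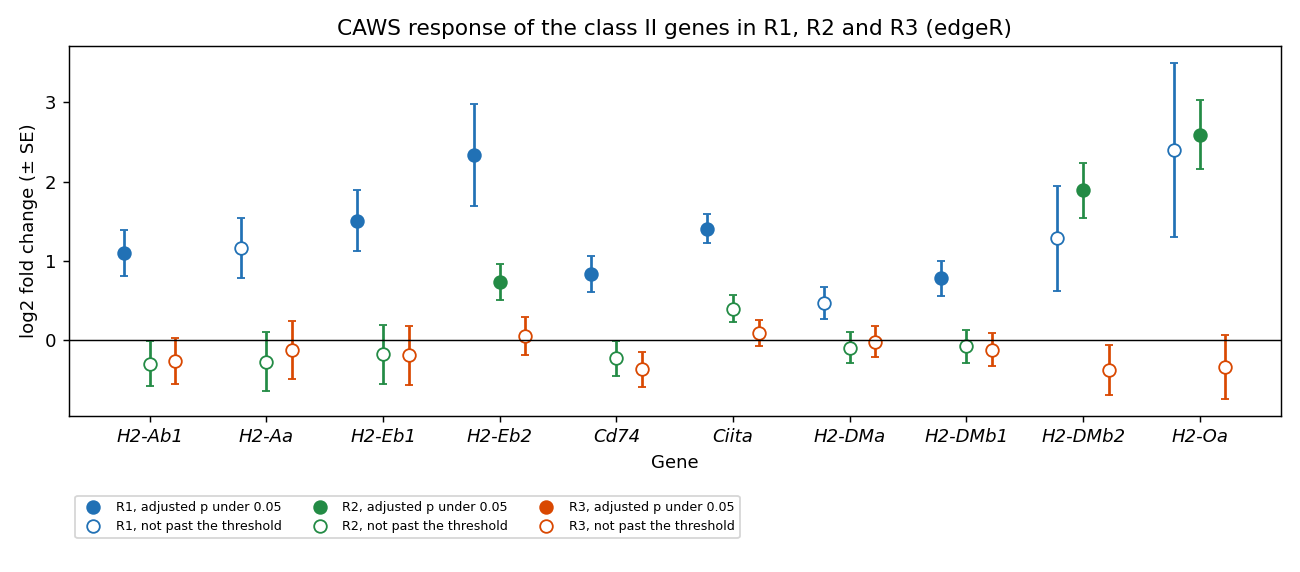
Log2 fold change of CAWS against naive libraries for each of the 10 genes in R1, R2 and R3, with standard errors from edgeR (3 libraries a group). Filled symbols passed an adjusted p under 0.05: 6 genes in R1, 3 in R2 and 0 in R3.

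Whether the CAWS response differed between populations was tested as the difference of 2 fold changes. Each fold change was bounded by the MHC-II gate of its population. Ciita responded less in R3 than in R1, by -1.31 ± 0.25 on the log2 scale (adjusted p = 0.0036), the only gene of the 10 called in that comparison. Over all genes tested 2.16% were called lower there and 0.0979% higher. H2-Oa and H2-DMb2 responded less in R3 than in R2, by -2.93 ± 0.59 (adjusted p = 0.00851) and -2.26 ± 0.47 (adjusted p = 0.0102), 2 of 10 where 2.23% of all genes were called lower and 0.0979% higher. Without CAWS R2 replicate 2 the H2-DMb2 call was lost (adjusted p = 0.0536), DESeq2 did not call H2-Oa (0.0857), and with only the compared groups in the fit neither passed (adjusted p = 0.0714 for H2-Oa and 0.105 for H2-DMb2). Between R2 and R1 edgeR called 0 of 10, where 0.0151% of all genes were called lower and 0.0377% higher. In that comparison 7 of the 10 had an unadjusted p under 0.05, all lower in R2, where 2.72% of all genes had one and were lower. DESeq2 called 1 of the 10 and limma voom 3, where they called 0.429% and 0.211% of all genes in either direction.

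The calls of these differences depended on whether same-numbered libraries of a treatment, read as sharing a pool, were fitted as a block. Same-numbered libraries of a treatment deviated together from their group means. Within CAWS, H2-Ab1, H2-Aa, H2-Eb1, Cd74 and H2-DMa were highest in replicate 1 and lowest in replicate 3 of R1, R2 and R3 alike. Ciita, H2-Eb2, H2-DMb1, H2-DMb2 and H2-Oa did not keep that order, with Ciita at 331, 309 and 439 CPM in CAWS R3. With pools fitted as blocks inside each treatment, 7 of the 10 genes responded less in R2 than in R1 and the same 7 less in R3 than in R1: H2-Ab1, H2-Aa, H2-Eb1, Cd74, Ciita, H2-DMa and H2-DMb1. With the block, 0.573% and 5.85% of all genes were called lower in these comparisons. H2-Ab1, for instance, differed by -1.41 ± 0.11 between R2 and R1 with the block (adjusted p = 1e-07) and by -1.40 ± 0.41 without it (adjusted p = 0.391). The size of the difference was nearly the same, and the standard error was smaller. Without the block the count for R3 against R1 was 3 when naive R1 replicate 2 was left out and 2 without CAWS R1 replicate 3 or without the 3 libraries named above.

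Ratios within a library show how the genes moved against each other, on a per-length scale, and carry no test here. The I-E beta chain H2-Eb1 stood at 0.477 ± 0.025 of H2-Ab1 in naive R1 (SD, n = 3) and at 0.635 ± 0.023 in CAWS R1, with no overlap, and at 0.771 ± 0.012 in naive R2 and 0.834 ± 0.008 in CAWS R2, again with no overlap. In the splenic monocytes it was 0.146, 0.318 and 0.253. H2-DMa, the alpha chain of the editor, was abundant relative to its client where class II was low: 0.478 ± 0.039 of H2-Ab1 in naive R1 and 1.19 ± 0.34 in the monocytes, against 0.125 to 0.126 in the naive R2 libraries. After CAWS the ratio was 0.312 ± 0.045 in R1 and 0.145 ± 0.007 in R2. The inhibitor chain H2-Oa amounted to 0.232, 0.452 and 0.489% of H2-DMa in naive R2 and to 2.74, 3.17 and 1.29% in CAWS R2, and the groups did not overlap. H2-DMb2 went from 2.62 to 3.88% of H2-DMb1 in naive R2 to 6.62 to 16.4% in CAWS R2. In R3 the same ratio was 6.86 to 14.9% before and 7.35 to 9.73% after CAWS.

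**Figure D3:**
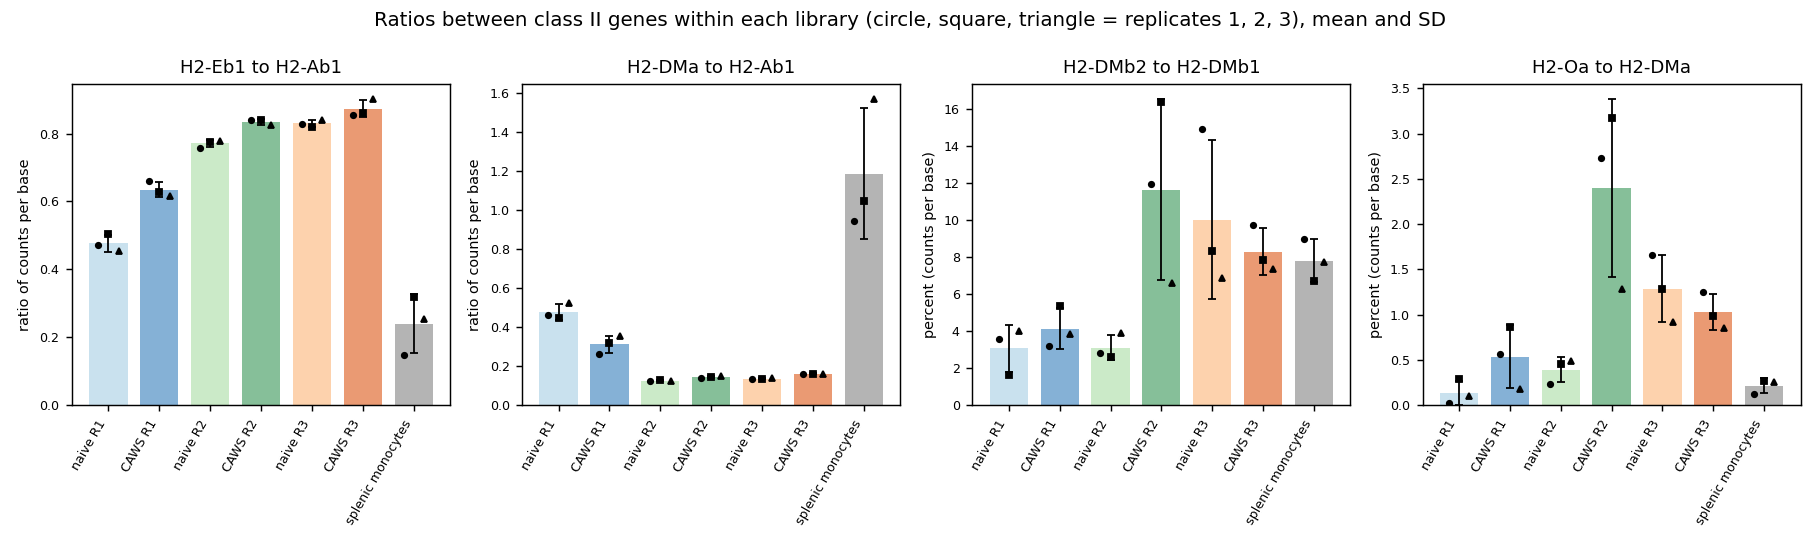
Ratios of counts per base between pairs of class II genes within each library, by group. Bars give the mean of 3 libraries, lines the SD and symbols the replicates. H2-DMa relative to H2-Ab1 is highest in the monocytes and in naive R1, and H2-Oa relative to H2-DMa is highest in CAWS R2.

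Some of these genes share sequence or ground with others. On chromosome 17 (GRCm38.p6) they run from H2-Oa (34092379 to 34095234), H2-DMa (34119693 to 34139101), H2-DMb2 (34143229 to 34151553) and H2-DMb1 (34153191 to 34160229) to H2-Ab1 (34263227 to 34269418), H2-Aa (34282744 to 34287823), H2-Eb1 (34305867 to 34316674) and H2-Eb2 (34325503 to 34341410). Ciita lies on chromosome 16 (10480014 to 10531064) and Cd74 on chromosome 18 (60803849 to 60812652). Of the 1741 distinct 50-base stretches in GENCODE transcripts of H2-DMb2, 369 (21.2%) also occur in H2-DMb1. Those 50 bases alone fit both genes, and how reads that fit both were counted is not given. H2-Eb2 shares 0 of 3343 such stretches with H2-Eb1. On the opposite strand, exons of Dexi overlap 329 bases of Ciita exons, exons of Brd2 overlap 360 bases of H2-DMa and exons of BC051537 overlap 321 bases of H2-Oa. Because the strand setting of the counting is not given, reads from those bases are uncertain.

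Between the populations the comparison with R1 follows the MHC-II gate, so the values are a description. All 10 genes were higher in naive R2 than in naive R1, where 3.88% of all genes tested were called higher and 3.25% lower. The log2 differences ran from 2.23 for H2-DMa to 4.81 for H2-Eb1, with 3.11 for Ciita and 3.71 for Cd74. In naive R3 against naive R1 they ran from 2.55 for H2-DMa to 5.73 for H2-Oa, again 10 of 10, where 12.5% of all genes were called higher and 10.7% lower. In naive R2 against naive R1 the H2-Oa call was lost without naive R1 replicate 1, naive R1 replicate 3 or naive R2 replicate 2. There limma voom called 8 of the 10, all but H2-Oa (adjusted p = 0.161) and H2-DMb2 (0.0809). After CAWS the difference between R2 and R1 was smaller for 8 of the 10, all but H2-DMb2 and H2-Oa. Tested above as the difference of responses, 0 of the 10 passed in the main fit and 7 with the pool as a block. The comparisons with R1 share its libraries. CAWS R2 against CAWS R1 gave 1.66 for H2-DMa, 2.10 for Ciita, 2.74 for H2-Ab1 and 3.85 for H2-Oa, with 2.46% of all genes called higher and 1.31% lower. Both differences were again higher for 10 of 10, and CAWS R3 against CAWS R1 ran from 2.01 for H2-DMb1 to 3.43 for H2-Eb1, with 13.1% of all genes higher and 16.3% lower. Markers of other cells differed in the same comparisons. Dendritic cell markers were higher for 1 of 10 in naive R2, 7 in naive R3, 8 in CAWS R2 and 4 in CAWS R3, each against R1 of its treatment, and heart muscle markers for 4 of 5 in naive R2 and in naive R3. Their part was not tested.

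R2 and R3 share the MHC-II-high gate and differ in Ccr2. In naive mice 3 of the 10 genes were higher in R3, where 6.63% of all genes tested were called higher, and 0 lower, where 5.77% were. H2-Oa was at 23.9, 21.1 and 12.1 CPM in naive R3 against 2.71 to 5.80 CPM in naive R2 (log2 fold change 2.08 ± 0.45, adjusted p = 0.00383). H2-DMb2 was at 42.2, 28.1 and 18.99 CPM against 6.71 to 8.28 CPM (2.04 ± 0.35, adjusted p = 0.00044). In both sparse editor genes the groups did not overlap. In the same comparison 4 of 10 dendritic cell markers and 5 of 6 monocyte markers were higher in R3, with Cd209a at 6.49 CPM in naive R2 and 299 CPM in naive R3 and Flt3 at 2.91 and 35.4 CPM on average, and their part was not tested. Ciita was higher by a smaller margin, 297 to 369 CPM against 197 to 266 CPM (0.57 ± 0.17, adjusted p = 0.0273), and its call was lost without any one of 4 of the 6 libraries compared. The main chains did not pass: H2-Ab1 differed by 0.21 ± 0.29 (adjusted p = 0.714). With the pool as a block 6 of the 10 were called higher in naive R3, H2-Eb1, H2-DMa and H2-DMb1 being added at 0.31 to 0.34 (adjusted p at most 0.0391), where 12.1% of all genes were called higher.

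After CAWS, edgeR called 0 of the 10 between R3 and R2, where 5.51% of all genes were called higher and 9.76% lower. Among the 10, 1 gene, H2-Oa, had an unadjusted p under 0.05 (-0.84 ± 0.39, adjusted p = 0.168), and 16.2% of all genes had one and were lower. DESeq2 called 0 of the 10 and limma voom 2, where they called 16.9% and 29.9% of all genes in either direction. The levels of H2-Oa were 21.8, 13.99 and 10.1 CPM in CAWS R3 and 32.2, 37.1 and 12.2 CPM in CAWS R2, which overlapped. Without CAWS R2 replicate 3 it was called lower in R3. With the pool as a block 5 genes were called higher in R3 (H2-Ab1, H2-Aa, H2-Eb1, H2-DMa and H2-DMb1, log2 differences 0.24 to 0.39) and H2-Oa lower (-0.80 ± 0.23, adjusted p = 0.0159), where 11.3% of all genes were called higher and 15.2% lower.

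The levels of H2-Oa and H2-DMb2 stood beside markers of conventional dendritic cells. Between naive and CAWS R2, 7 of 10 such markers were called higher, and their sum went from 144 to 197 CPM up to 263 to 552 CPM. Cd209a, a lectin of dendritic cells and some monocyte-derived cells, went from 5.78, 5.97 and 7.71 CPM to 145, 206 and 69.9 CPM, and Flt3, a receptor for a dendritic cell growth factor, from 3.57, 2.50 and 2.64 to 39.6, 49.7 and 17.4 CPM. Within CAWS R2, H2-Oa, H2-DMb2 and 8 of the 10 markers, Cd209a and Flt3 included, were highest in replicate 2 and lowest in replicate 3, and Clec9a and Ccr7 were not. Within naive R3, H2-Oa and H2-DMb2 were highest in replicate 1 and lowest in replicate 3, as were 4 of the 10 markers, Cd209a, Flt3, Dpp4 and Kit. The share of all genes tested that kept either order was not counted, so these counts have no measure beside them. None of the 10 markers was at 0 throughout CAWS R2. Between CAWS and naive cells in R3, 0 of the 10 were called, where 6.7% of all genes tested rose and 8.29% fell. That count was near those shares. The order did not hold across groups. In the splenic monocytes Flt3 measured 49.99 to 75.0 CPM with H2-Oa at 0.579 to 2.05 CPM, and naive R2 had more H2-Oa than CAWS R1 on average (4.57 and 1.93 CPM) with less Cd209a in every library. Other markers also differed between naive and CAWS R2, where 6.79% of all genes tested rose. Of 6 monocyte markers 3 were called higher, and their sum went from 26.0 to 43.5 CPM up to 236 to 312 CPM. Ccr2 was among them, with a log2 fold change of 2.97 ± 0.30 (adjusted p = 5.4e-06). Of 6 endothelial and stromal markers 1 was higher. The part of dendritic cells, monocytes or other cells in the H2-Oa and H2-DMb2 results was not tested.

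H2-O is also known from B cells. Of 6 B cell markers tested 0 were called between CAWS and naive cells in R1, R2 or R3. Over all genes tested 6.07%, 6.79% and 6.7% rose there and 2.87%, 3.5% and 8.29% fell, so the counts of 0 were near those shares. Pax5, a defining factor of B cells, was too sparse to be tested. It was at 0 in all 9 CAWS macrophage libraries and at 0.286 CPM at most in naive R2 and naive R3. Between populations, 4 of the 6 were higher in CAWS R2 than in CAWS R1, where 2.46% of all genes were. In naive R2 against naive R1, 2 of the 6 were higher, where 3.88% of all genes were. H2-Oa was higher in both comparisons too, and the part of B cells in those results was not tested. The B cell list summed to 630 to 672 CPM in naive R2 and 656 to 843 CPM in CAWS R2, of which Ighm alone was 591 to 637 and 624 to 792 CPM.

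**Figure D4:**
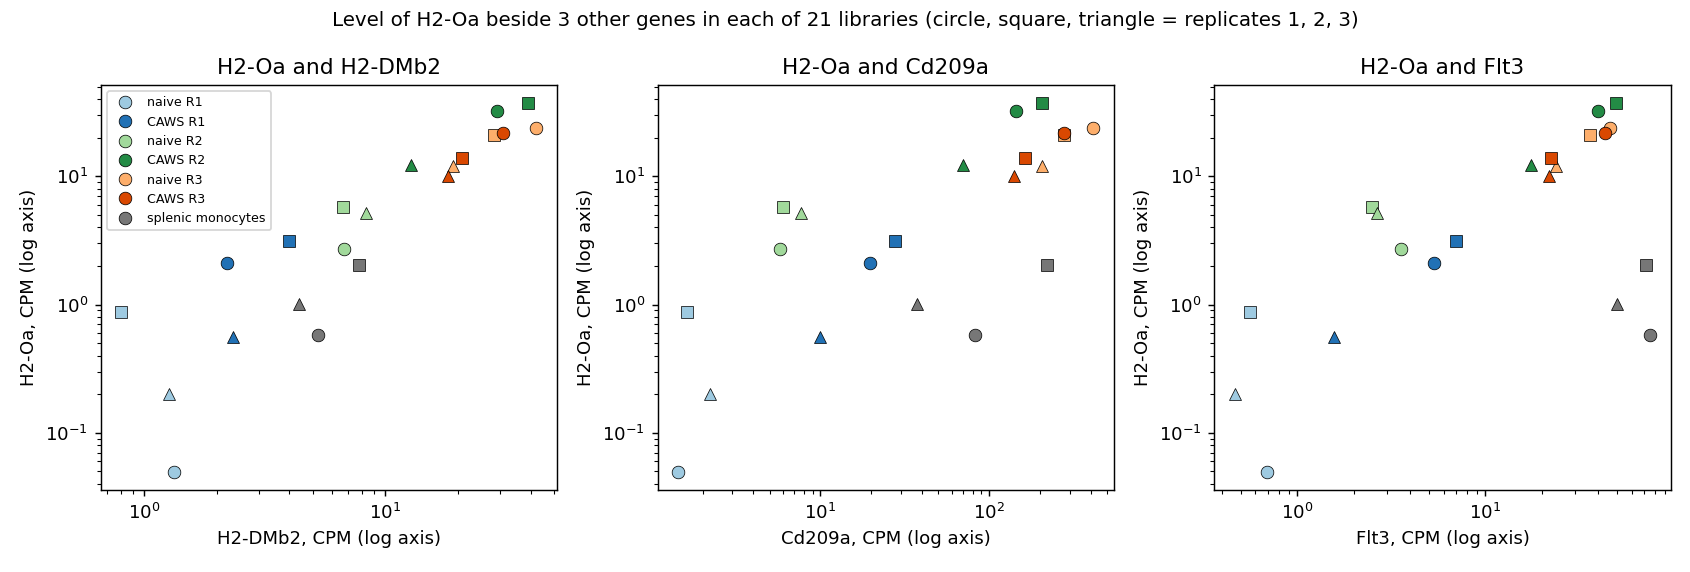
H2-Oa level (vertical log axis, CPM) beside H2-DMb2, Cd209a and Flt3 (horizontal log axes, CPM) in each of 21 libraries, coloured by group with symbols for the replicates. CAWS R2 and both R3 groups lie at the upper right in each panel, and the splenic monocytes have Flt3 at 49.99 to 75.0 CPM with H2-Oa at 2.05 CPM or less.

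Against the splenic monocytes, which differ from the macrophages in tissue and in cell type together, the counts differed between the 3 naive populations, whose comparisons share the same 3 monocyte libraries. In naive R1, 1 of the 10 genes was higher and 5 were lower, where 32.5% of all genes tested were higher and 30.8% lower. The genes that were lower in R1 were Ciita (26.2 ± 6.02 against 60.2 ± 14.9 CPM, SD, n = 3; adjusted p = 8.75e-06), H2-DMa, H2-DMb1, H2-DMb2 and H2-Eb2. H2-Eb1 was higher in R1 (1.04 ± 0.38, adjusted p = 0.0253), with libraries that overlapped, since monocyte replicate 2 had 372 CPM and the other monocyte libraries 101 and 121 CPM. The H2-Eb1 call was lost without naive R1 replicate 2, monocyte replicate 1 or monocyte replicate 3 (adjusted p = 0.135, 0.143 and 0.15). H2-Ab1, H2-Aa and Cd74 did not pass. H2-Aa stood at 370, 1177 and 309 CPM in the monocytes, and without replicate 2 it was called higher in naive R1 (1.01, adjusted p = 0.00231). That library also had the most Cd209a of its group, 221 CPM against 82.3 and 37.2 CPM.

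In naive R2, 9 of the 10 were higher than in the monocytes, all but H2-DMb2 (7.24 ± 0.90 against 5.81 ± 1.77 CPM), where 33.1% of all genes were higher and 30.5% lower. The H2-Oa call there (1.92 ± 0.71, adjusted p = 0.0245) was lost without naive R2 replicate 2, naive R2 replicate 3, monocyte replicate 1 or monocyte replicate 3 (adjusted p up to 0.104). In naive R3 all 10 were higher, where 31.9% of all genes were higher and 27.1% lower. Among them H2-Eb1 differed most, by 6.17 ± 0.47 on the log2 scale, and H2-DMa least, by 1.41 ± 0.20 (adjusted p = 5.76e-06).

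Other genes of the pathway were counted from lists by role. Of the 7 DNA-binding partners of Ciita (Rfx5, Rfxap, Rfxank, Nfya, Nfyb, Nfyc and Creb1), 0 rose after CAWS in R1, R2 or R3 and 1 fell, Creb1 in R2, where 3.5% of all genes tested fell (-0.47 ± 0.12, adjusted p = 0.0192). Their median log2 fold changes were -0.181, -0.265 and -0.0945. Of the 10 genes for signals and factors that act on Ciita, 3 rose in R1, 2 in R2 and 1 in R3, and 0 fell, where 6.07%, 6.79% and 6.7% of all genes rose. The count in R3 was near that share. Irf1, an interferon-induced activator of Ciita, rose in all 3 populations, by 0.51 ± 0.14, 0.43 ± 0.14 and 0.56 ± 0.14 (adjusted p = 0.0223, 0.0471 and 0.00863). In R1 the other genes of that list that rose were Irf8 (0.48 ± 0.13) and Prdm1 (0.65 ± 0.18), which encodes a repressor of Ciita, and in R2 the kinase gene Jak2 (0.41 ± 0.11). Between naive R2 and naive R1, Prdm1 and Irf8 were higher in R2, by 0.99 and 0.73 (adjusted p = 0.000635 and 0.000508), along with Ifngr2, 3 of the 10.

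Genes for the proteolysis of antigen and invariant chain were also counted. Of 7, 5 rose and 0 fell in R1, 4 rose and 1 fell in R2, and 4 rose and 0 fell in R3. Over all genes tested the shares that rose were again 6.07%, 6.79% and 6.7%, and 2.87%, 3.5% and 8.29% fell. Ifi30, the thiol reductase that opens disulfide bonds of antigens, rose in each population, by 0.71 ± 0.10, 1.04 ± 0.10 and 0.87 ± 0.10 (adjusted p = 0.000121, 4.59e-07 and 3.61e-06). Ctss, the protease for the last steps of invariant chain cleavage, rose in R1 only by the test (0.42 ± 0.11, adjusted p = 0.0245), and whether its response differed between populations was called in 0 of 3 comparisons. Sppl2a, the membrane protease that clears the remaining stump of Cd74, fell in R2 (-0.37 ± 0.10, adjusted p = 0.0187). The ubiquitin ligase Marchf8, which can remove class II from the surface, fell in R3 (-0.41 ± 0.13, adjusted p = 0.0439), and Marchf1 passed in none of the 3. Of the costimulatory genes Cd80, Cd86 and Cd40, none passed in R1 or R2. In R3 Cd40 rose by 0.77 ± 0.19 (adjusted p = 0.00863) and Cd86 fell by 0.68 ± 0.11 on the log2 scale (adjusted p = 0.000218). H2-Ob, the beta partner of H2-Oa, measured 36.5 ± 0.74 CPM in naive R2 and 54.6 ± 15.1 in CAWS R2 (0.58 ± 0.21, adjusted p = 0.0782). Per length, H2-Oa was at 0.193, 0.396 and 0.361 of H2-Ob in naive R2 and at 1.40, 1.40 and 0.818 in CAWS R2.

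For H2-Ab1, Ciita and H2-Oa the genes with the most similar pattern over the 21 libraries were sought, as the smallest root-mean-square difference of log2 CPM after each gene was centred. Among the other 9 genes of the group, Cd74 was nearest to H2-Ab1 (0.222) and H2-Aa next (0.269), whereas H2-DMb1 was nearest to Ciita (0.447) and H2-Eb2 nearest to H2-Oa (0.896). Outside the group, the 5 nearest to H2-Ab1 were Prss30 (0.716), H2-Ob (0.774), Mycl (0.842), Siglecf (0.92) and Btnl1 (0.948). Those nearest to Ciita were Slamf7 (0.569), Strip2 (0.64), Adora3 (0.649), Rasgrp1 (0.659) and Ipcef1 (0.677), and those nearest to H2-Oa were Spint1 (0.825), Cldn1 (0.937), Adam23 (1.02), Clec9a (1.03) and Siglecf (1.04). Slamf7, a receptor of the SLAM family, averaged 19.2 ± 4.89 CPM in the naive R1 libraries and 81.0 ± 5.88 CPM after CAWS (SD, n = 3). The patterns share the same libraries and their depth, and no test was made of the likeness.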

How the data were processed

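RNA-seq of 21 libraries was analysed. The deposited values are read counts per gene, made by the authors with featureCounts on mm10, per the submitters' processing notes. The sources used here do not state the aligner, annotation, strand setting or version. The deposited table also holds a gene length, used for TPM and ratios, and the counts of the 21 single-library files equal those of the table. Symbols were matched for 25275 of 27179 IDs from RefSeq (GRCm38.p6).

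Differences were tested, two-sided, by the robust quasi-likelihood test of edgeR 4.0.16 (R 4.3.3) after TMM scaling (factors 0.9093 to 1.065). One mean per group was fitted over all 21 libraries, with 14 residual degrees of freedom. Genes were kept by filterByExpr (minimum count 10, minimum total 15), and p-values were adjusted by Benjamini-Hochberg over 13275 genes, with a threshold of 0.05. A standard error is the log2 fold change divided by the square root of F. The fit was tested on simulated data. The 10 genes and the lists were chosen with earlier results of these data known. Named genes are the 10, listed pathway genes, markers that a result stands beside, and the 5 genes nearest in pattern to each of 3 of the 10.

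Alternatives were RLE scaling, no filter or a stricter one (minimum count 50), DESeq2 1.42.0, limma voom (limma 3.58.1), only the compared groups, each library left out, and a replicate block. Heart pools were divided into R1, R2 and R3, per the series' design text, so the number was read as the pool within a treatment. Same-numbered libraries of a treatment deviated together in 5021 well-measured genes (18 correlations, 0.167 to 0.693), and less so over all 13275 genes (0.0162 to 0.253). Across treatments the numbers of heart libraries did not pair (-0.324 to 0.317 in the well-measured genes). Between heart libraries and splenic monocytes of the same number the correlations ran from -0.193 to 0.726.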

Additional observations from a re-analysis of the deposited data

Results flagged for a closer look

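A total of 3 values were singled out because the CAWS response of a gene differed between populations in a test of the difference itself, by edgeR with an adjusted p under 0.05. The response of Ciita was smaller in R3 than in R1 by a log2 difference of -1.31 (adjusted p = 0.0036). The response of H2-DMb2 was smaller in R3 than in R2, with a log2 difference of -2.26 (adjusted p = 0.0102), and the call was lost without CAWS R2 replicate 2 (adjusted p = 0.0536). The response of H2-Oa was smaller in R3 than in R2, with a log2 difference of -2.93 (adjusted p = 0.00851). The H2-Oa call was lost by DESeq2 (adjusted p = 0.0857) and by edgeR with only the compared groups (0.0714).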

How the results depend on the processing

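Over 2250 combinations of a gene, a comparison and an alternative, 2076 kept their direction and their side of the threshold, 59 lost a call, 64 gained one, 0 called values reversed and 51 uncalled values changed sign. Counts of called genes moved as follows, and the cause was not tested. For CAWS in R1 the count was 6, 9 by DESeq2, 7 by limma voom, 3 with no filter, 3 with only the compared groups and 1 to 6 with a library left out. For CAWS in R2 it was 3, and 5 with only the compared groups. For the response in R2 against R1 it was 0, with 1 by DESeq2, 1 with only the compared groups and 3 by limma voom. For R3 against R1 it was 1, with 4 by DESeq2, 2 with only the compared groups and 7 by limma voom. It was 1 to 3 with a library left out. It was 2 without naive R3 replicate 2, CAWS R1 replicate 2 and splenic monocyte replicate 2, left out together. For R3 against R2 it was 2, with 1 by DESeq2, 0 with only the compared groups and 1 to 2 with a library left out. For naive R3 against naive R2 it was 3, and 7 with only the compared groups. For CAWS R3 against CAWS R2 it was 0, with 1 with only the compared groups, 2 by limma voom and 0 to 1 with a library left out.

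With the replicate block (pool within treatment) the counts were 7 for the response in R2 against R1, 7 for R3 against R1, 6 for naive R3 against naive R2 and 6 for CAWS R3 against CAWS R2. The block moved no other count of these genes by over 1.5 times. A block of the number across treatments, where the numbers did not pair, added H2-Aa and H2-DMa to the calls for CAWS in R1. In naive R1, H2-Eb2 and H2-Oa rest on 12 and 18 counts over 3 libraries, which limits their fold changes.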
